A study of Mus musculus with 8 samples.

Results

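The genes described here carry thyroid hormone action in brown adipose tissue (BAT): *Dio2*, *Thra*, *Thrb*, *Rxra*, *Rxrg*, *Ncor1*, *Ncoa1* and *Thrsp*. They were chosen by name for their known roles, with earlier results of these data known. They are 8 of the 33641 genes with deposited counts. The study asked which RNAs of BAT depend on HuR, the RNA binding protein encoded by *Elavl1*. In *Adipo-HuR-/-* mice a Cre recombinase under the adiponectin promoter deletes floxed *Elavl1* in adipocytes, so that the other cells of the tissue keep the gene. Controls were littermates that the study calls wild-type, of the genotypes *wt/wt-cre+*, *flox/flox-cre-* and *wt/flox-cre-*, and the labels do not say which of these a control library came from. All 8 libraries were poly(A) RNA of whole interscapular BAT from C57BL/6 mice at 28 weeks of age, 3 labelled control (A7, A8 and A12) and 5 labelled *Adipo-HuR-/-* (A24, A25 and A26, with A29 and A31). Values per library keep this order, the 3 control libraries before the 5 others. The labels do not state that each library came from its own mouse, and p-values measure the spread between libraries. Estimated counts summed to 60622522, 51751002 and 50673814 in the control libraries, and to 18264754, 17558090, 67498055, 50893173 and 58727739 in the others.

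Thyroid hormone reaches the brown adipocyte mostly as the prohormone thyroxine, and the type 2 deiodinase made from *Dio2* converts it to the active hormone triiodothyronine inside the cell. Triiodothyronine binds the nuclear receptors TRα and TRβ, which sit on DNA paired with a retinoid X receptor and hold corepressors such as NCOR1 without hormone and coactivators such as NCOA1 with it. In BAT this pathway is known for its part in cold-induced heat production and in lipid synthesis.

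The deleted gene does not check the labels in these libraries. *Elavl1* had 50.6, 48.0 and 49.2 CPM (counts scaled to a common total with edgeR's TMM method) in the control libraries, and 61.9, 47.2, 43.4, 61.3 and 61.2 CPM in the others. The groups overlapped, and the legend in the paper gives the group sizes the other way round. Each direction below follows the labels. The tissue was BAT by its markers, with *Ucp1*, the uncoupling protein of brown fat, between 4250 CPM (A25) and 11435 CPM (A8). Libraries also differed in RNA of skeletal muscle. The summed CPM of 14 skeletal muscle markers was 3646, 2524 and 58.9 in the control libraries and 50.4, 31.8, 44.4, 46.3 and 423 in the others. A7, A8 and A31 thus stood apart from the other libraries. *Myh4*, the most abundant of these markers, was at 0 in A25, A26 and A29, and *Pvalb* was at 0 in these libraries and in A12 and A24. By TMM all 14 markers had negative log2 fold changes, and 2 of the 14, *Myh7* and *Myl1*, were past the threshold given below. Of all genes tested 105 (0.707%) were past it, 36 higher and 69 lower.

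No member of the thyroid hormone pathway described here was past the threshold between the groups. All 8 were tested in edgeR's quasi-likelihood model over 14851 genes, and a gene was past the threshold at a Benjamini-Hochberg adjusted p of at most 0.05 and a fold change of at least 1.5. Every adjusted p below is from this model unless another tool is named. The count was 0 of 8 members, where 105 of all genes tested (0.707%) were past it, and it was also 0 in edgeR's likelihood ratio test, DESeq2's Wald test and limma voom, which called 4.41%, 5.54% and 1.06% of all genes tested. *Thra* alone among the 8 had an unadjusted p of at most 0.05, as did 17.0% of all genes tested, and it alone had groups that did not overlap, as did 11.5% of all genes tested. The median log2 fold change of the members was 0.02, and that of all genes tested was 0.00, where positive values mean more RNA under the label *Adipo-HuR-/-*. Scaling by total counts only moved the median of all genes to 0.23 and that of the members to 0.25. As whole tissue was sequenced, fewer cells of a type and less RNA per cell cannot be told apart.

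**Figure D1:**
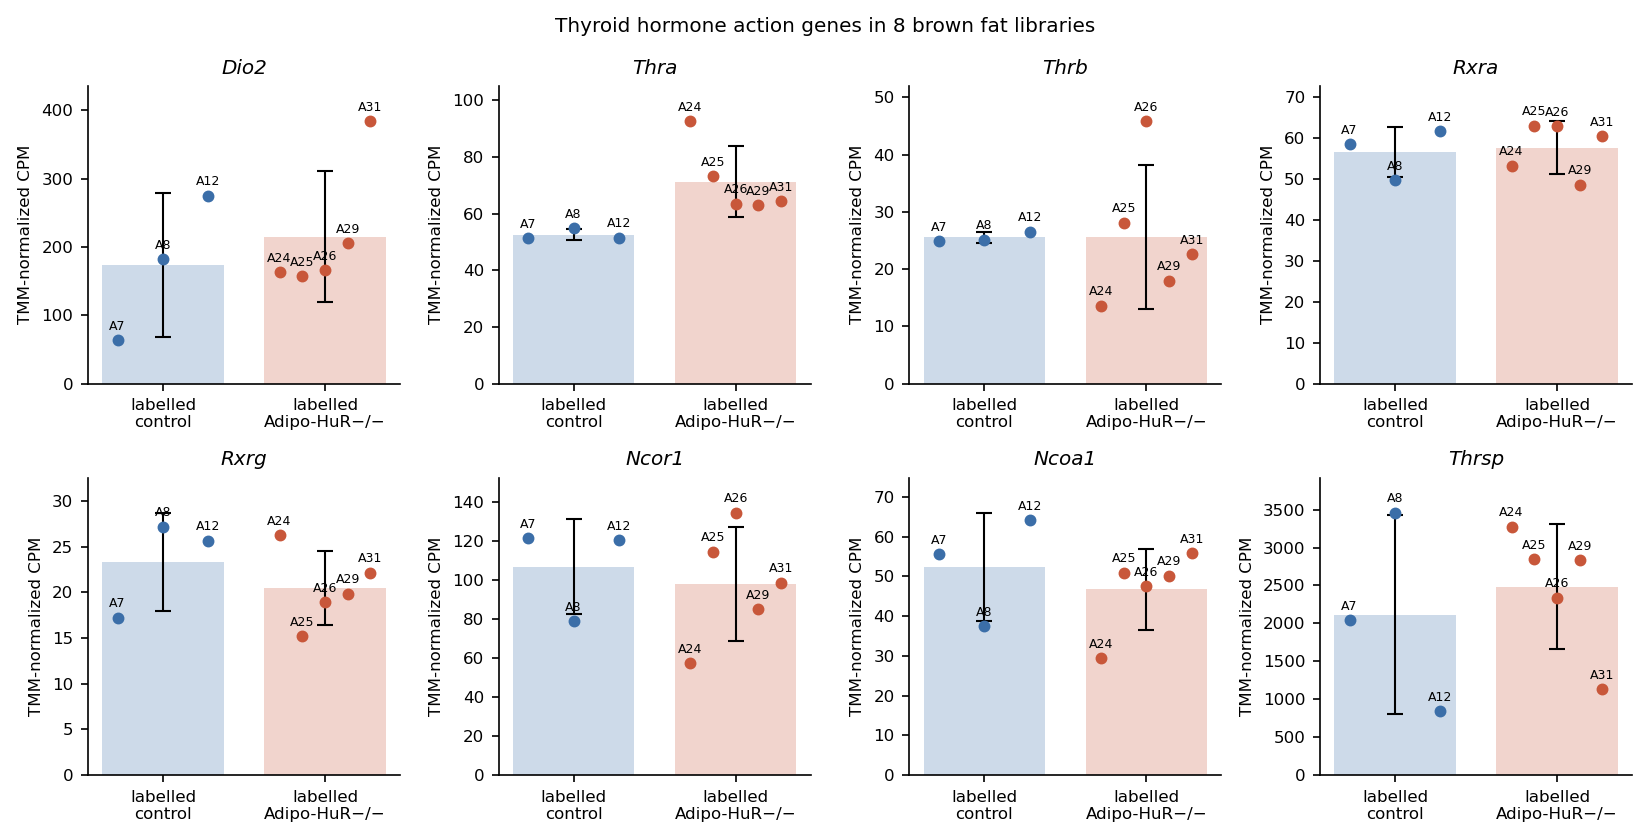
TMM-normalized CPM (vertical axis, from 0) of each member in the 8 libraries, as points named by library, with the group mean as a bar and its SD as a line (n = 3 and n = 5). In *Thra* the 5 libraries labelled *Adipo-HuR-/-* sit between 62.9 and 92.7 CPM, above the 3 labelled control, and in the other 7 panels the groups overlap.

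*Dio2*, the gene of the activating deiodinase, lies on the minus strand of chromosome 12 of GRCm38 from 90724552 to 90738438 and has 1 annotated transcript. It had 63.8, 182 and 275 CPM in the control libraries. It had 163, 157, 166, 205 and 384 CPM in the others. A7 was the lowest and A31 the highest library, 6.02-fold apart, and between them lay 2 control libraries and 4 labelled *Adipo-HuR-/-*. The means were 174 ± 106 CPM in controls (SD, n = 3) against 215 ± 96.4 (SD, n = 5), a difference no larger than the libraries' own spread (two-sided exact permutation p = 0.643). The log2 fold change was 0.31 (standard error 0.441, 95% interval −0.67 to 1.29, adjusted p = 0.771), so that the interval reached from 0.630-fold to 2.44-fold. Its sign rested on single libraries, with −0.087 without A7 and −0.0099 without A31. Among the libraries with little skeletal muscle RNA, A12 against A24, A25, A26 and A29, it was −0.67 (adjusted p = 0.346, the lowest of a range up to 0.996 over the alternatives), a fit in which the lone control library is assumed to vary like the others.

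The 3 genes whose pattern over the 8 libraries was most like that of *Dio2* were *Nr4a1*, *Krt222* and *Emcn*, with root mean square differences of centred log2 CPM of 0.243, 0.331 and 0.332. *Nr4a1*, an immediate early gene for a nuclear receptor, had 15.2, 25.7 and 55.7 CPM in the control libraries, and 30.8, 23.2, 24.7, 35.3 and 68.3 CPM in the others. Like *Dio2* it was lowest in A7 and highest in A31, with A12 second. *Emcn*, an endothelial sialomucin, was lowest in A7 (9.91 CPM) and highest in A31 (36.5 CPM) too. *Dio2* is known as a gene that cyclic AMP induces in brown fat through a response element in its promoter. The RefSeq promoter of *Dio2* (GRCm38.p6, 250 bases before to 50 after a start that lies outside the gene as GENCODE gives it) holds the full element TGACGTCA, a palindrome and so the same on both strands, 95 bases before the start, and these letters are in 1.79% of 32851 promoters of that length. The element is shown in capitals within 30 bases of the gene's strand, chr12:90739115-90739144:
*Dio2*: ctctttctcaaTGACGTCAagatctttagc
The promoter window of *Nr4a1* did not hold these 8 letters, and a match is a description only.

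*Thra* encodes TRα, a main thyroid hormone receptor of brown fat. It lies on the plus strand of chromosome 11 from 98740638 to 98769006. It had 51.4, 54.8 and 51.5 CPM in the control libraries. It had 92.7, 73.2, 63.5, 62.9 and 64.5 CPM in the others. The 3 control libraries lay close together and all 5 libraries labelled *Adipo-HuR-/-* were above them, A24 the highest. The means were 52.6 ± 1.95 CPM in controls (SD, n = 3) against 71.3 ± 12.6 (SD, n = 5), with a two-sided exact permutation p of 0.0357, the smallest that 56 splits of 3 against 5 allow. The log2 fold change was 0.44 (standard error 0.165, 95% interval 0.07 to 0.80), with an unadjusted p of 0.0228 and an adjusted p of 0.209, so *Thra* did not pass the correction, nor did its 1.36-fold difference reach 1.5. Leaving out A24 and A25, which have the lowest totals, gave a log2 fold change of 0.27, and it was 0.67 with total counts only, and the adjusted p lay between 0.0953 and 0.562 over the alternatives.

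The last exon of *Thra* meets the last exon of *Nr1d1*, a clock gene on the opposite strand (98767932 to 98775333), and the overlap in exons is 263 bases. Whether the counting used strand is not given in the sources used here, so reads from this overlap cannot be assigned to either gene. The same holds for shorter exon overlaps with genes on the opposite strand, of 100 bases in *Dio2*, 82 and 1 in *Ncor1* and 68 in *Ncoa1*. *Nr1d1* had 161, 42.8 and 66.1 CPM in the control libraries, and 78.5, 108, 173, 69.5 and 71.3 CPM in the others. Its highest libraries, A26 and A7, were not those of *Thra*, and its groups overlapped (log2 fold change 0.15, adjusted p = 0.893). The log2 fold change of *Nr1d1* was 0.88 without A7 and −0.18 without A8. Whether its reads have a part in the *Thra* estimate was not tested.

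Of 9 *Thra* transcripts, the 2 that carried at least 10% of the estimate on average encode proteins that differ through their last exons. Thra-202 encodes TRα1, which binds hormone, and Thra-201 encodes TRα2, which does not. Their coding sequences of 1230 and 1476 bases (410 and 492 codons) are the same for the first 1111 bases and then part, where Thra-201 leaves the exon that Thra-202 reads through and joins an exon that starts at 98768157. The point where they part is shown in coding sequence of the plus strand, 15 shared bases in lower case (the last of them in Thra-201 from the next exon) and the first 15 of each transcript's own in capitals:
Thra-202 (TRα1): agctgctgatgaaggTGACTGACCTCCGCA
Thra-201 (TRα2): agctgctgatgaaggAGAGAGAAGTGCAGA
The overlap with *Nr1d1* takes 10.7% of the length of Thra-201 and none of Thra-202.

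Thra-201 was the larger part of the *Thra* estimate in each library, with 36.2, 44.9 and 34.4 CPM in the control libraries, and 84.7, 52.2, 42.3, 49.96 and 47.3 CPM in the others. Its groups met in A8 and A26, and A24 was far above the rest. Thra-202 had 13.2, 8.88 and 13.0 CPM in the control libraries, and 6.86, 17.1, 18.7, 10.3 and 14.1 CPM in the others. A24, the highest library for Thra-201, was thus the lowest for Thra-202. Over the libraries the share of Thra-201 lay between 66.6% (A26) and 91.4% (A24), and that of Thra-202 between 7.40% (A24) and 29.5% (A26). In a fit over 41808 transcripts the log2 fold change was 0.46 (standard error 0.247, 95% interval −0.11 to 1.02, adjusted p = 0.724) for Thra-201 and 0.14 (standard error 0.334, 95% interval −0.62 to 0.90, adjusted p = 0.979) for Thra-202. The log2 fold change of Thra-201 was 0.26 without A24 and 0.76 with total counts only. Whether the differences of the 2 transcripts differ from each other was not tested, and the division of reads between transcripts is an estimate made before deposition.

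**Figure D2:**
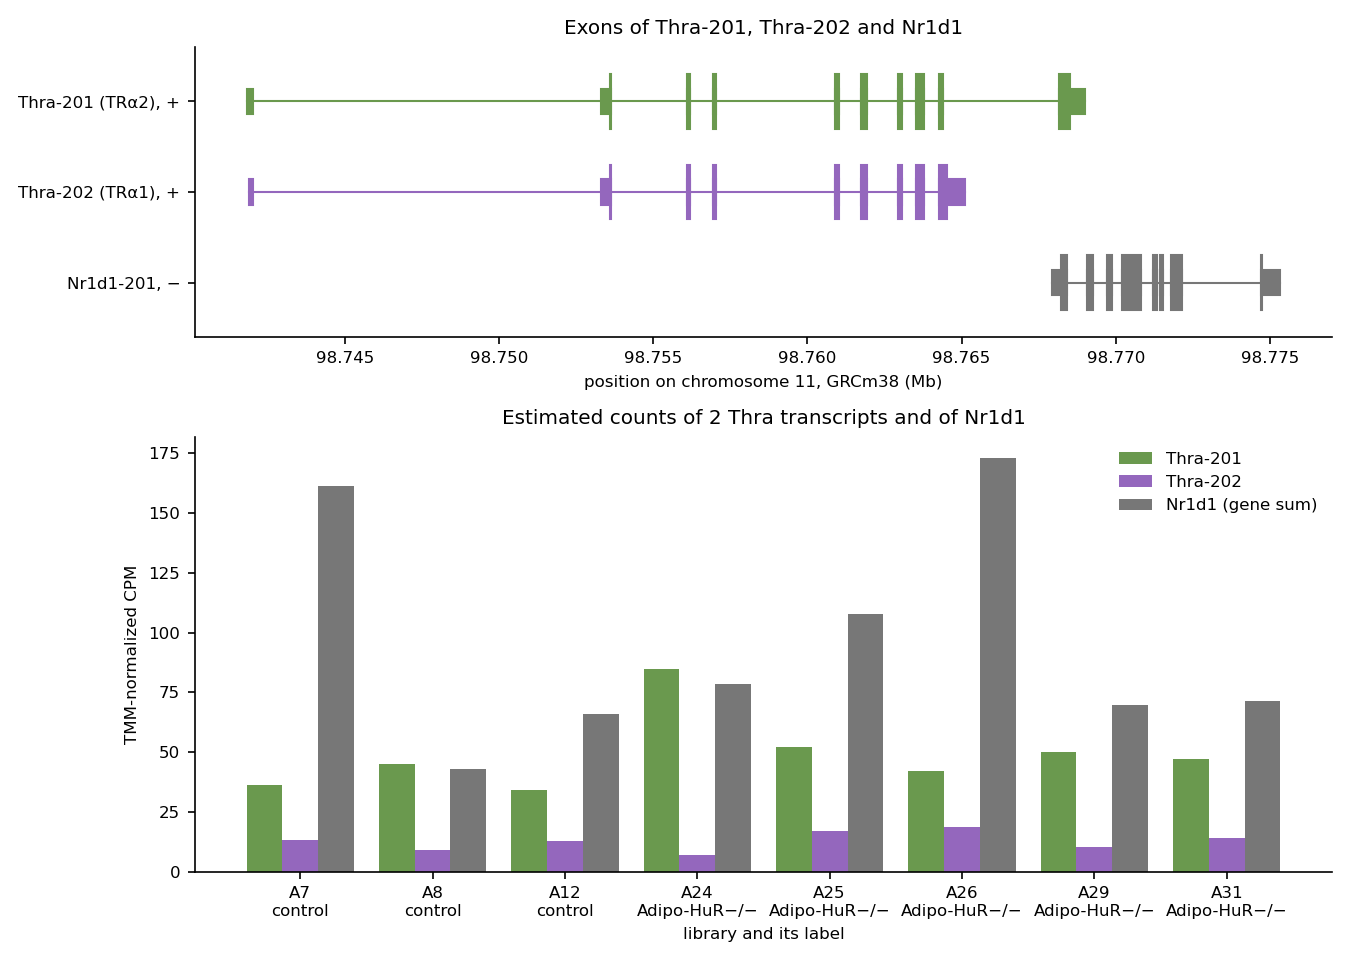
Upper panel: exons of Thra-201, Thra-202 and Nr1d1-201 along chromosome 11 of GRCm38 in Mb, coding parts tall and untranslated parts low, with each strand beside the name. Lower panel: TMM-normalized CPM of Thra-201, Thra-202 and *Nr1d1* as bars from 0 for each library; Thra-201 is highest (84.7 CPM) and Thra-202 lowest (6.86 CPM) in A24.

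*Thrb*, the gene of TRβ, spans chromosome 14 from 17660261 to 18038090 on the plus strand. It had 24.9, 25.1 and 26.5 CPM in the control libraries. It had 13.6, 28.1, 45.8, 18.0 and 22.6 CPM in the others. The control libraries lay between these, whose lowest and highest, A24 and A26, were 3.37-fold apart. The means nearly coincided, with 25.5 ± 0.888 CPM in controls (SD, n = 3) against 25.6 ± 12.5 (SD, n = 5), and the log2 fold change was 0.01 (standard error 0.328, 95% interval −0.72 to 0.74, adjusted p = 0.991; exact permutation p = 0.929). Thrb-203 and Thrb-201, which both encode a TRβ of 461 codons, carried on average 87.1% and 12.9% of the estimate, and Thrb-201 was at 0 in A24 and at 30.1% of the gene in A7. *Sox6*, a transcription factor gene, was nearest to *Thrb* in pattern (root mean square difference 0.166), followed by *Cmtr2* (0.192) and *Olfr1178* (0.207). *Sox6* too was lowest in A24 (14.9 CPM) and highest in A26 (39.7 CPM). *Olfr1178* was near the limit of counting, from 3 counts in A24 to 38 in A26.

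Retinoid X receptors are the partners of TRα and TRβ on DNA. *Rxra* (chromosome 2, 27676440 to 27762957, plus strand) was the steadiest member, with 58.4, 49.6 and 61.6 CPM in the control libraries, and 53.2, 63.0, 62.9, 48.6 and 60.5 CPM in the others. Its highest library was 1.298-fold above its lowest, and the groups overlapped fully. The log2 fold change was 0.03 (standard error 0.149, 95% interval −0.30 to 0.36, adjusted p = 0.944; exact permutation p = 0.714), an interval from 0.811-fold to 1.28-fold that did not reach a 1.5-fold change in either direction. *Rxrg* (chromosome 1, 167598384 to 167639623, plus strand), whose product is common in muscle, had 17.2, 27.2 and 25.7 CPM in the control libraries, and 26.3, 15.2, 18.9, 19.9 and 22.2 CPM in the others. A7 and A8, the libraries with the most skeletal muscle RNA, were among the lowest and the highest for *Rxrg*. Its log2 fold change was −0.19 (standard error 0.207, 95% interval −0.65 to 0.27, adjusted p = 0.695; exact permutation p = 0.429) and 0.05 with total counts only. Without A7 the log2 fold change was −0.37, and without A8 it was −0.059. Of the *Rxrg* estimate 98.9% on average was Rxrg-202, a transcript of 340 codons that starts at 167618309, within the gene.

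*Ncor1* encodes the corepressor that receptors without hormone recruit, and it lies on the minus strand of chromosome 11 from 62316426 to 62458541. It had 121, 79.0 and 121 CPM in the control libraries, and 57.5, 115, 135, 85.2 and 98.7 CPM in the others. A24 was the lowest and A26 the highest, both labelled *Adipo-HuR-/-*, and the control libraries lay between them. The log2 fold change was −0.12 (standard error 0.262, 95% interval −0.71 to 0.46, adjusted p = 0.851; exact permutation p = 0.679), 0.01 without A24 and 0.09 with total counts only. Its estimate was divided among 25 transcripts, of which Ncor1-204, the longest of those named here with 2454 codons, Ncor1-213 and Ncor1-202 carried 25.7%, 18.0% and 17.3% on average.

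*Ncoa1*, for a coactivator of hormone-bound receptors, lies on the minus strand of chromosome 12 from 4247362 to 4477182. It had 55.6, 37.4 and 64.2 CPM in the control libraries, and 29.4, 50.9, 47.5, 50.2 and 55.9 CPM in the others. A12 was the highest library and A24 the lowest, and the groups overlapped. The log2 fold change was −0.16 (standard error 0.232, 95% interval −0.68 to 0.35, adjusted p = 0.775; exact permutation p = 0.536), and it was 0.01 without A12 and 0.05 with total counts only.

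*Thrsp*, which encodes Spot 14, a nuclear protein of lipogenic cells, is a classic gene that thyroid hormone induces. It lies on the minus strand of chromosome 7 from 97412938 to 97417730. It had 2045, 3460 and 844 CPM in the control libraries, and 3275, 2843, 2337, 2835 and 1128 CPM in the others. A12 and A31 were low, 1 of each label, and the other 6 libraries were at 2045 CPM or more. The means were 2116 ± 1309 CPM in controls (SD, n = 3) against 2484 ± 827 (SD, n = 5). The log2 fold change was 0.23 (standard error 0.440, 95% interval −0.74 to 1.21, adjusted p = 0.834; exact permutation p = 0.643). It was −0.15 without A12, −0.021 without A24 and A25, and 1.74 for A12 against A24, A25, A26 and A29 (adjusted p = 0.158, the lowest of a range up to 0.992 over the alternatives), where the low A12 is the lone control library. *Dhrs7*, *BC029214* and *Rasl12* were nearest to *Thrsp* in pattern, with root mean square differences of 0.210, 0.265 and 0.277 on the log2 scale. All 3 were lowest in A12 and next lowest in A31, as *Thrsp* was, with 118 and 155 CPM for *Dhrs7*.

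*Dio2* and *Thrsp*, the activating enzyme and the target gene, thus varied most among the members, with SDs of log2 CPM over the 8 libraries of 0.748 and 0.743, followed by *Thrb* with 0.507. *Rxra* varied least, with 0.154. A12 and A31 were the pair of libraries with the most *Dio2* and also those with the least *Thrsp*, and they carry different labels. No test was made of a relation between the pair of genes, which was noticed in these libraries.

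Levels of different genes were compared as CPM per kilobase of transcript, with lengths weighted by the estimated counts. *Thrsp* had by far the most, with a median of 2023 CPM per kilobase over the 8 libraries and a range from 660 to 2707, without overlap with any other member. *Dio2* came next with a median of 29.9 (10.97 to 66.1), followed by *Thra* with 26.9 (21.9 to 39.4), *Ncor1* with 19.7 (10.6 to 24.8), *Rxrg* with 12.9 (9.31 to 16.6), *Rxra* with 12.2 (9.92 to 12.9), *Thrb* with 11.4 (6.18 to 20.8) and *Ncoa1* with 7.37 (4.28 to 9.36). From *Dio2* on, the ranges of neighbours in this order overlapped, and *Dio2* was above *Thra* in 5 of 8 libraries. *Thrb* was above *Ncoa1* in 8 of 8 libraries despite the overlap. With the length of the transcript with the highest count, *Ncor1* had 12.1 CPM per kilobase and *Thrb* had 14.2, which put *Thrb* above *Rxrg* (12.9), *Rxra* and *Ncor1*, so that the order of these 4 depends on the length used.

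Of the 59 transcripts of the members, 34 passed the filter on low counts, and 12 carried at least 10% of their gene's estimate on average. The quasi-likelihood model of edgeR called none of these (0 of 12, where 4 of 41808 transcripts, 0.00957%, were past it), and 0 of the 12 had an unadjusted p of at most 0.05, as 8.16% of all transcripts tested did. Nor did the groups of any of the 12 stay apart, as those of 7.42% of all transcripts tested did.

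Letters of a thyroid hormone response element were looked for in the promoter windows of the members. Of the 8 members 7 matched by symbol, all but *Thra*, with 11 windows of 300 bases in RefSeq (GRCm38.p6). The hexamer AGGTCA, on either strand, was in windows of 3 members, *Thrb*, *Rxra* and *Rxrg*, and is in 16.3% of all promoters. The hexamer repeated in the same direction with 4 bases between was in none of the 11 and is in 0.0152% of all promoters. For *Rxrg* the hexamer lies 88 bases before the start of the inner promoter, upstream of the annotated start of Rxrg-202, and it is shown in capitals on the plus strand, chr1:167618165-167618194:
*Rxrg*: atcggggttgaaAGGTCAgctgaaagcttc
These are matches of letters, and binding was not measured.

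The other genes of the pathway were followed in a list of 41, of which 38 passed the filter on low counts. The quasi-likelihood model of edgeR called none (0 of 38), where it called 0.707% of all genes tested. Of the 38, 2 had an unadjusted p of at most 0.05, as did 17.0% of all genes tested, and 3 (*Slco1c1*, *Kat2b* and *Usp20*) had groups that did not overlap, as did 11.5%. The likelihood ratio test called 2 (*Slco1c1* and *Kat2b*), where it called 4.41% of all genes tested. *Slco1c1* passed the filter only through libraries labelled *Adipo-HuR-/-*, where it was high. Its call and its separate groups are therefore no evidence of a difference. DESeq2's Wald test and limma voom called 1 each (*Kat2b*), where they called 5.54% and 1.06% of all genes tested. By TMM 13 of the 38 had positive and 25 negative log2 fold changes, with a median of −0.07, and with total counts only 30 were positive and 8 negative, with a median of 0.14.

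*Kat2b*, which encodes the acetyltransferase PCAF of coactivator complexes (chromosome 17, 53566861 to 53672720), came nearest to the threshold. It had 48.4, 38.3 and 50.7 CPM in the control libraries, and 26.1, 28.3, 29.5, 28.1 and 29.3 CPM in the others. The 5 libraries labelled *Adipo-HuR-/-* lay close together and below each control library, A8 the lowest of these. The means were 45.8 ± 6.59 CPM in controls (SD, n = 3) against 28.2 ± 1.35 (SD, n = 5), and on the log2 scale the fold change was −0.70 (standard error 0.136, 95% interval −0.999 to −0.39, adjusted p = 0.0516; exact permutation p = 0.0357). Without A8 it was −0.81 with an adjusted p of 0.0268, which is past the threshold, and over the alternatives the adjusted p lay between 0.000166 (DESeq2's Wald test) and 0.277. Its direction was the same in all 19 alternatives.

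Of genes for hormone entry and conversion, 6 of 9 were tested, with 4 higher, 2 lower and 0 past the threshold (5 higher and 1 lower with total counts only). *Slc16a10*, for the transporter MCT10, had 23.96 ± 4.29 CPM in controls (SD, n = 3) against 21.5 ± 1.59 (SD, n = 5), with overlapping groups. *Slco1c1*, for the transporter OATP1C1, was near the limit of counting, with 2 counts in the 3 control libraries together and 36 in the 5 labelled *Adipo-HuR-/-*, a ratio of scaled counts of 11.9 (exact 95% interval 3.07 to 102, for counting error only). Of the 36 counts 20 were in A31, and without A31 the ratio was 7.50 (1.76 to 67.2) and the gene was under the filter on low counts, as it was without A24 or without A25. It had at most 0.303 CPM (A31), and its adjusted p was 0.131 (0.0246 to 0.384 over the alternatives). The other deiodinases were at or under 3 counts in each library, *Dio1* at 0 in all 8 and *Dio3* at 0 in 6 of them. *Crym*, for a protein that binds triiodothyronine in the cytosol, was under the filter, with 0.275, 0.152 and 0.0627 CPM in the control libraries and between 0 (A25) and 0.0606 CPM (A31) in the others, so that A12 and A31 nearly met.

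Genes that make or remove the deiodinase protein, such as those of selenocysteine insertion and of its ubiquitin cycle, were all tested (7 of 7), with 2 higher and 5 lower, and 7 higher with total counts only. *Usp20*, a deubiquitinase gene of this list, had 15.0, 16.4 and 17.4 CPM in the control libraries and 14.4, 14.3, 13.0, 14.3 and 14.6 CPM in the others. Its groups did not overlap, but the nearest libraries, A7 and A31, were under 1 CPM apart, and the log2 fold change of −0.20 had an adjusted p of 0.456 and was 0.03 with total counts only. Among partners and the corepressor complex 3 of 6 were higher and 3 lower, and 5 higher and 1 lower with total counts only. *Rxrb* had 46.1 ± 3.05 CPM in controls (SD, n = 3) against 54.4 ± 4.99 (SD, n = 5) and a fold change of 0.24 on the log2 scale (adjusted p = 0.413), and its groups overlapped. Of the 9 coactivator genes, 4 were higher and 5 lower, and 8 higher and 1 lower with total counts only. Among them *Ncoa2* had 23.6 ± 5.56 CPM in controls (SD, n = 3) against 24.3 ± 7.18 (SD, n = 5).

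**Figure D3:**
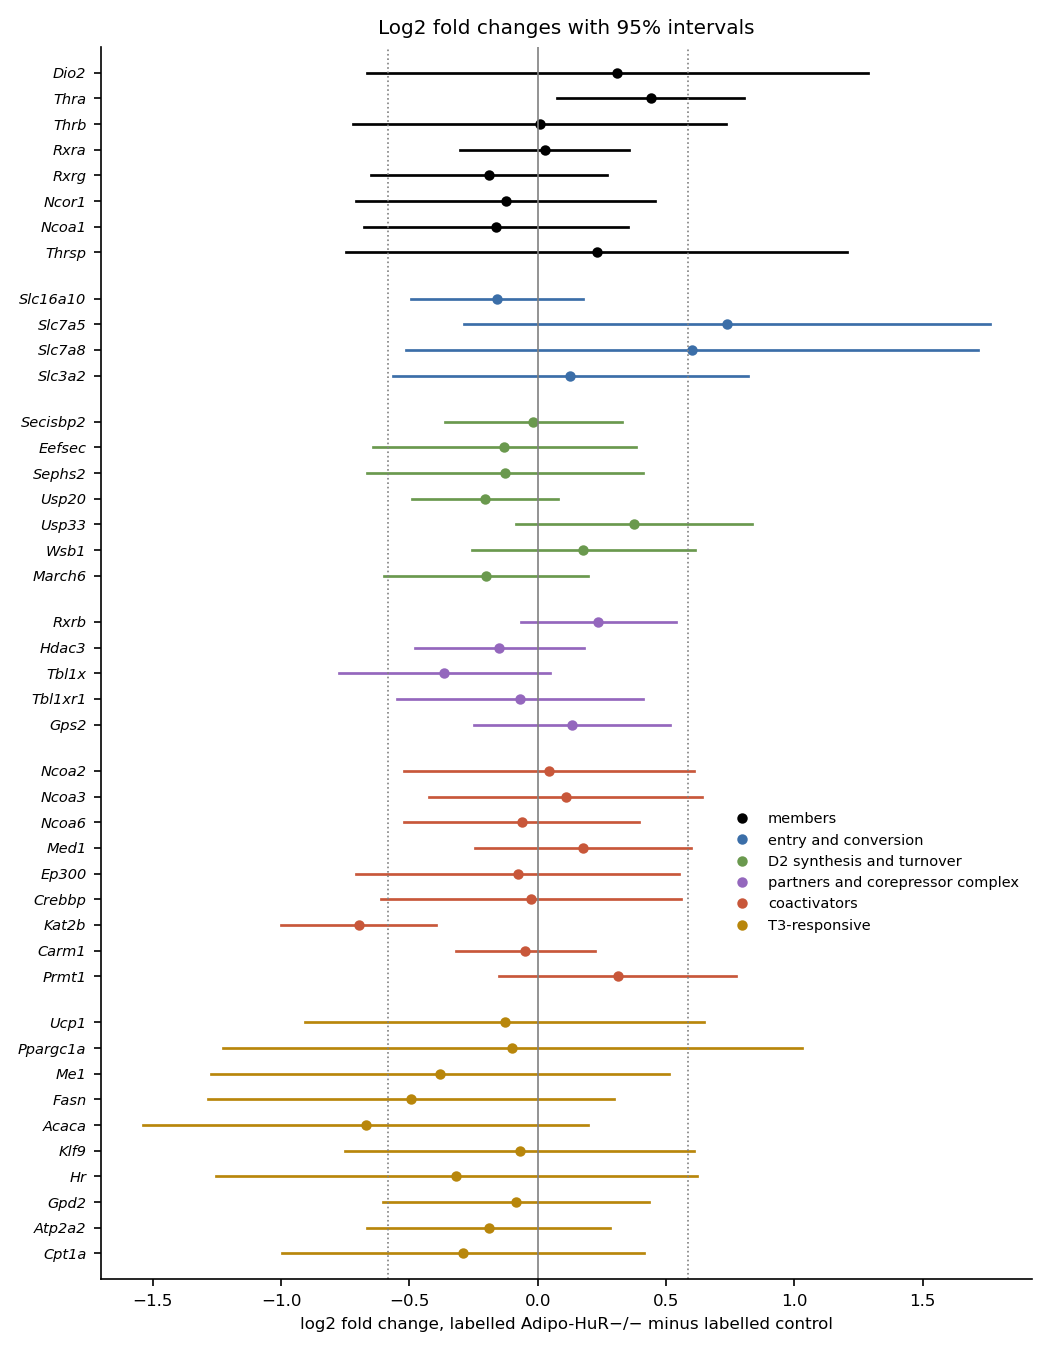
Log2 fold changes (horizontal axis, libraries labelled *Adipo-HuR-/-* minus labelled control, TMM) as points with 95% intervals as lines for the 8 members and 35 of the 38 tested genes of the pathway list, coloured by list, with dotted lines at 1.5-fold in each direction; 3 tested genes are not drawn, among them *Slco1c1*, with 2 counts in the control libraries. Of the intervals drawn, those of *Thra* and *Kat2b* lie to one side of 0.

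Genes known to respond to thyroid hormone in fat, liver or muscle were followed as a group, 10 of 10 tested and 0 past the threshold. The member *Thrsp*, also induced by the hormone, is not among these 10, and its log2 fold change was positive (0.23 by TMM). All 10 had negative log2 fold changes by TMM, from −0.67 (*Acaca*) to −0.07 (*Klf9*), and with total counts only 5 were negative and 5 positive. The median was −0.24 by TMM and −0.03 with total counts only, and it lay 0.24 and 0.26 under the median of all genes tested in these scalings. The signs moved with single libraries as well, with 7 of 10 negative without A7 and 6 of 10 without A12. A7 held the highest value of 4 of the 10 genes and A12 that of another 4, while A31 held the lowest value of 4.

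*Me1*, for the malic enzyme that supplies NADPH to lipid synthesis, had 2367, 1178 and 722 CPM in the control libraries, and between 657 (A31) and 1788 (A29) CPM, with a median of 1027, in the others. On the log2 scale its fold change was −0.38 (standard error 0.402, 95% interval −1.27 to 0.51, adjusted p = 0.683) and 0.20 without A7. *Hr*, for the corepressor hairless, had 41.5, 14.7 and 7.75 CPM in the control libraries, and between 13.1 (A25) and 20.6 (A24) CPM, with a median of 16.8, in the others. A7 was above and A12 below each library labelled *Adipo-HuR-/-*, and the log2 fold change of −0.32 (adjusted p = 0.756) became 0.61 without A7. *Klf9*, a transcription factor gene with a direct response to the hormone, had 53.1, 60.6 and 112 CPM in the control libraries, and between 52.5 (A29) and 110 (A26) CPM, with a median of 61.0, in the others (log2 fold change −0.07, adjusted p = 0.930).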

How the data were processed

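The authors deposited estimated counts per transcript, not normalized, on GRCm38, with reads that fit several transcripts divided between them; the paper names CLC Genomics Workbench for mapping, and the counting program and strand setting are not given in the sources used here. From these estimated counts, transcripts were summed per gene symbol and rounded to whole numbers (79.1% of sums were within 0.02 of one). Of 105129 transcripts, 103723 matched GENCODE M21, which gave positions and lengths.

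Genes passing filterByExpr were tested in R 4.3.3 with edgeR 4.0.16 (quasi-likelihood, TMM), adjusted over all genes by Benjamini-Hochberg, and transcripts likewise. Standard errors are the log2 fold change divided by the square root of F. Exact permutation tests were two-sided. Alternatives used DESeq2 1.42.0, limma 3.58.1, other scalings and filters, the transcript with the highest count, a skeletal muscle covariate, and fewer libraries. Every limma voom fit was run with quality weights. The fit was tested on simulated counts. Counting intervals cover counting error only.

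Named genes are the members, *Elavl1*, *Nr1d1*, 6 pathway genes whatever their values, pathway genes past the threshold, with unadjusted p of at most 0.05 or with groups apart, the 3 genes nearest in pattern (root mean square difference of centred log2 CPM, prior count 2) to each of the 3 most variable members, and the most abundant markers; *Myh7*, *Myl1*, *Pvalb*, *Dio1*, *Dio3*, *Acaca* and *Ucp1* answer a count, a range or a check and were chosen after their values were seen. Members and lists were chosen with earlier results of these data known. A few results that the rule would name are not reported here, though their genes stay in the counts.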

Additional observations from a re-analysis of the deposited data

Results flagged for a closer look

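In the 5 libraries labelled *Adipo-HuR-/-*, 36 named genes and 12 member transcripts were looked at for a library far from the others, by the gap to the nearest library against the whole range. Of these 48 series 6 had one. For independent series of normal values, chance gives about 1 in 20. These series were not independent, and the share of all genes tested with such a library is not given here. The 6 can therefore not be called an excess. *Dio2* had 384 CPM in A31, against 157 to 205 CPM in the other 4, and as the gene has 1 transcript, Dio2-201 repeats this value of 384 CPM. Thra-201 had 84.7 CPM in A24, against 42.3 to 52.2 CPM in the other 4. *Nr4a1* had 68.3 CPM in A31, against 23.2 to 35.3 CPM in the other 4, and was chosen for a pattern like that of *Dio2*. *Myh4* had 106 CPM in A31, against 0 to 0.113 CPM in the other 4. *Usp20* had 13.0 CPM in A26, where the other 4 lay between 14.3 and 14.6 CPM. A24 is 1 of the 2 libraries with the fewest counts, and A31 is the library with this label that has the most skeletal muscle RNA; the part of either in these values was not tested.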

How the results depend on the processing

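The count of members past the threshold was 0 in all 19 alternatives, and that of the 12 member transcripts was 0 in all 10 of theirs. The share of all genes past it in the 19 ran from 0.0256% (A12 against A24, A25, A26 and A29) to 5.54% (DESeq2's Wald test), and where it was this small a count of 0 says nothing about stability. It was 0.0343% without A24 and A25 and 0.128% with the skeletal muscle covariate. *Thra* kept its direction in all 19, from 0.27 to 0.67. Of the pathway list, 1 gene was past the threshold in DESeq2's Wald test (5.54% of all genes tested were), 2 in edgeR's likelihood ratio test (4.41%), 1 in limma voom (1.06%), 1 with at least 10 counts in every library (1.03%), and 0 to 1 with 1 library left out (0.0680% without A26 to 1.24% without A12, and 0.947% without A8, which gave the 1). *Kat2b* was among them in each of these tools and filters, with *Slco1c1* beside it in the likelihood ratio test.

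Signs turned as follows, and the cause was not tested. With total counts only, log2 fold changes were 0.055 for *Rxrg*, 0.088 for *Ncor1*, 0.054 for *Ncoa1*, 0.10 for *Slc16a10*, 0.15 for *Klf9* and 0.031 for *Usp20*, and among transcripts 0.045 for Ncoa1-201, 0.033 for Ncor1-202, 0.10 for Ncor1-213, 0.26 for Rxra-201, 0.047 for Rxrg-202 and 0.22 for Thrb-203. With limma voom and its quality weights together they were −0.11 for *Thrb*, −0.013 for *Rxra*, −0.049 for *Ncoa2* and 0.0093 for *Hr*. With the transcript with the highest count they were −0.023 for *Thrb*, −0.026 for *Ncoa2* and 0.056 for *Usp20*. With the skeletal muscle covariate they were −0.13 for *Thrb*, −0.031 for *Rxra*, −0.16 for *Ncoa2*, 0.82 for *Hr* and 0.15 for *Me1*. For A12 against A24, A25, A26 and A29 they were −0.67 for *Dio2*, −0.0035 for *Thrb*, −0.11 for *Rxra*, −0.18 for *Ncoa2*, 1.18 for *Hr* and 0.73 for *Me1*. Without A24 and A25, *Thrsp* was at −0.021. The level of *Ncor1* moved to 12.1 CPM per kilobase with the length of the transcript with the highest count.

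With 1 library left out in turn, log2 fold changes whose sign turned at least once ran from −0.087 to 0.81 for *Dio2*, −0.31 to 0.16 for *Thrb*, −0.15 to 0.79 for *Thrsp*, −0.053 to 0.093 for *Rxra*, −0.30 to 0.011 for *Ncor1*, −0.35 to 0.010 for *Ncoa1*, −0.18 to 0.88 for *Nr1d1*, −0.13 to 0.18 for *Ncoa2*, −0.28 to 0.34 for *Klf9*, −0.71 to 0.61 for *Hr*. Those of the rest ran from −0.70 to 0.20 for *Me1*, −0.15 to 0.75 for Dio2-201, −0.50 to 0.062 for Ncor1-202, −0.60 to 0.033 for Ncor1-204, −0.37 to 0.007 for Ncor1-213, −0.099 to 0.044 for Rxra-201, −0.018 to 0.30 for Thra-202, −0.50 to 1.40 for Thrb-201, −0.35 to 0.037 for Thrb-203, −0.21 to 0.73 for Thrsp-201.

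Few counts limit what can be said of the lowest genes. *Crym*, *Dio1* and *Dio3* were under the filter and have no fitted fold change, and *Slco1c1* is given as a ratio of counts with a wide interval. The transcript shares rest on the division of reads made before deposition.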

Other observations

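Markers of several other cell types were summed in the same way, and for each list given here the sums of the groups overlapped unless stated. Brown adipocyte markers (8 tested, 2 higher and 6 lower by TMM, 7 higher and 1 lower with total counts only, *Fabp4* the most abundant) had 15464, 31572 and 22482 CPM in the control libraries and 26730, 14496, 19663, 19542 and 23750 CPM in the others, with an exact permutation p of 0.643. Endothelial markers (4 tested, *Cdh5* the most abundant) averaged 356 and 394 CPM (exact permutation p = 0.536), and all 4 were higher. White adipocyte markers (3 tested, *Lep* the most abundant) averaged 42.5 and 23.2 CPM (exact permutation p = 0.179), with 1 higher and 2 lower by TMM, *Lep* among the lower (log2 fold change −1.22), and 2 higher and 1 lower with total counts only. Macrophage markers (4 tested, *Csf1r*) averaged 20.9 and 17.8 CPM (exact permutation p = 0.571), with 1 higher and 3 lower. Fibroblast markers (3 tested, *Dcn*) averaged 116 and 98.2 CPM (exact permutation p = 0.5), with all 3 lower by TMM, and 2 higher and 1 lower with total counts only. Lymphocyte markers (3 of 4 tested, *Cd79a*) averaged 0.875 and 1.24 CPM (exact permutation p = 0.286), with all 3 higher. Hepatocyte markers (1 of 3 tested; *Alb*, the most abundant, was under the filter on low counts) summed to 0.113, 0.177 and 0.0836 CPM in the control libraries and 1.41, 0.285, 0.385, 2.67 and 0.257 CPM in the others. These sums did not overlap (exact permutation p = 0.0357), with A24 and A29 far above the rest, while the groups of *Alb* itself overlapped. The sums rest on few counts, in the control libraries 1, 0 and 0 for *Alb* and 6, 7 and 4 for the tested marker. That marker could pass the filter on low counts through the libraries where it was high. The separate sums are therefore no evidence of a difference. Of the single markers in these lists, *Pecam1* (endothelial), *Agt* (white adipocyte) and *Cd3e* (lymphocyte) had groups that did not overlap. They were named after their values were seen. All were higher under the label *Adipo-HuR-/-*, and 11.5% of all genes tested had groups apart in either direction. None was past the threshold, with adjusted p of 0.332, 0.137 and 0.178. Counts in the control libraries were low for *Agt* (5, 6 and 12) and *Cd3e* (7, 3 and 6). Both could pass the filter on low counts through the libraries where they were high, so their separate groups are no evidence of a difference.

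Of the 9 coactivator genes, 7 had their lowest value in A24, and so did 3 of the 8 members, *Thrb*, *Ncor1* and *Ncoa1*. The shares of all genes tested with their lowest or highest value in a given library are not given here. Such counts per library can therefore not be called unusual. The cause was not tested.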
